A study of Mus musculus with 6 samples.

Results

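The endoplasmic reticulum (ER) chaperones and the genes of the integrated stress response were followed in tumours that the mouse glioma cell line CT2A formed under the skin of Siglece knockout (KO) or wild-type (WT) mice. The 38 genes were chosen by function from the 55291 gene symbols of the count table, and 38 of 38 passed the low-count filter. They form a chaperone arm of 22 genes (14 folding factors, 4 genes of ER-associated degradation, and 4 sensors and transcription factors) and an ATF4 arm of 16 genes (8 regulators and effectors, 5 enzymes of amino acid and folate metabolism, and 3 transporters). Bulk RNA-seq with Smart-seq2, whose libraries keep no strand information, gave 3 libraries from tumours of KO mice and 3 from tumours of WT mice. Siglece encodes Siglec-E, an inhibitory receptor of mouse myeloid cells; the host carries the deletion, and the labels name the same implanted line for both genotypes. The tumours grew outside the brain, the organ of origin of a glioma, although a source field of the labels reads brain. The labels say that CT2A cells were sampled and name no sort or gate. No strain, age or sex is given in the labels used here, nor whether libraries of a genotype came from separate animals, so the p-values rest on the variation among these 6 libraries, some of which may be technical.

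Folding of secreted and membrane proteins in the ER relies on chaperones such as BiP, on lectin chaperones and on disulfide isomerases. When unfolded protein accumulates, the sensors IRE1, ATF6 and PERK signal: IRE1 splices Xbp1 mRNA, ATF6 is cut to release a transcription factor, and PERK phosphorylates the translation factor eIF2. Phosphorylated eIF2 slows translation while favouring translation of ATF4, which turns on genes of amino acid synthesis and uptake. Other eIF2 kinases, among them the amino acid sensor GCN2, feed into the same ATF4 arm without ER stress, which is why the arms are described apart. Gene counts show neither Xbp1 splicing nor the translation of Atf4.

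Some promoters of the chaperone arm hold a known element, shown here because no measured value was used to find it. The ER stress response element (ERSE) is CCAAT, 9 bases of any kind and CCACG; the factor NF-Y is known to bind its first part and ATF6 its second. Promoters came from RefSeq (GRCm38.p6, the assembly also called mm10) as 250 bases before to 50 after each annotated start, and 34 of the 38 members matched. On either strand, ERSE stood in 8 of the 19 chaperone arm genes with a promoter, in 0 of the 15 ATF4 arm genes with one, and in 37 of all 27025 genes (0.137%). The chaperone arm was chosen to hold known targets of ER stress signalling, so its share was partly set by that choice. Below, capitals mark the element, positions count from the start site, and a motif on the opposite strand reads CGTGG, 9 bases, ATTGG. The first sequence is the Hspa5 promoter before the start site, chr2:34771840-34772089 on the plus strand, and the others are windows around the element.
Hspa5: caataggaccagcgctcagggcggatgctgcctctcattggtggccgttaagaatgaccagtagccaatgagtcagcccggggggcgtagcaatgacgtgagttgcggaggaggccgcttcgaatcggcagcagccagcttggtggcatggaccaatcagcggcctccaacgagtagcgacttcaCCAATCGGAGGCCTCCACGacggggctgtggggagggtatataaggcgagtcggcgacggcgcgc
Hsp90b1, element at -212 to -194, chr10:86705626-86705668, minus strand: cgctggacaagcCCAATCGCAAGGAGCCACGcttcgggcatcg
Hsp90b1, element at -107 to -89, chr10:86705521-86705563, minus strand: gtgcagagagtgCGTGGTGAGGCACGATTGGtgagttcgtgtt
Calr, element at -162 to -144, chr8:84847063-84847105, minus strand: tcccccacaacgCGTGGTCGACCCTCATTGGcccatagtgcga
Canx, element at -145 to -127, chr11:50325788-50325830, minus strand: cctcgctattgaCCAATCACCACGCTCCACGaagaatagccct
Creld2, element at -126 to -108, chr15:88819508-88819550, plus strand: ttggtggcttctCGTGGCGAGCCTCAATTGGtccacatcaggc
Pdia6, element at -98 to -80, chr12:17266479-17266521, plus strand: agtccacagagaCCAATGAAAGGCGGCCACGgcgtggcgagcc
Dnajc3, element at -105 to -87, chr14:118937815-118937857, plus strand: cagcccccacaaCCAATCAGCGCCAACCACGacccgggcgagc
Syvn1, element at -44 to -26, chr19:6046520-6046562, plus strand: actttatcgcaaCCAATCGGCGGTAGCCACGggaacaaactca

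A related element, ERSE-II (ATTGG, 1 base, CCACG), stood in Herpud1 and Dnajb11 and in 12 of all genes (0.0444%). In Herpud1 it lay at -52 to -42, within chr8:94386365-94386399 on the plus strand, and in Dnajb11 it lay at 8 to 18, after the start.
Herpud1: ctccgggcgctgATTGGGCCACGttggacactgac
The element TGACGTGG, bound by XBP1 and ATF6, was in none of the members' windows and in 0.714% of genes. The same held for TGATGNAAT, the composite element that ATF4 binds with C/EBP partners (1.08% of genes), and for its form TGATGCAAT (0.222%). These letters may lie elsewhere in the genes, outside the window searched. A match is a description of the sequence and not evidence of binding in these tumours.

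Library totals ran from 24369359 to 40574093 counts, and the members had from 65 counts (Chac1, KO replicate 3) to 58309 counts (Hsp90b1, WT replicate 1) in a library. The targeted gene, Siglece, had 0, 8 and 0 counts in KO replicates 1, 2 and 3, against 74, 99 and 64 counts in WT replicates 1, 2 and 3. The libraries stood apart in ways that touch every result below: on the first principal component, which held 72.7% of the variance, KO replicates 1, 2 and 3 lay at -116, 17.7 and -178.5, and the WT libraries between 84.8 and 97.1. Between pairs of libraries, KO replicate 2 differed from WT replicates 1, 2 and 3 by a chi-square per degree of freedom of 280.7, 93.3 and 98.4. From KO replicates 1 and 3 it differed by more, at 305 and 414. Mitochondrial genes took 1.92, 2.11 and 4.40% of counts in KO replicates 1, 2 and 3, against 0.717 to 1.13% in WT. Markers of the glioma line (10 genes, among them Nes, Sox2, Olig2 and Ptprz1) summed to 88.4, 677 and 68.4 CPM (counts scaled to a common library size after TMM correction) in KO replicates 1, 2 and 3, against 942 to 1002 CPM in WT; Gfap was at 0 in KO replicate 3. Fibroblast markers (7 of 7 higher in KO) summed to 12358 to 38635 CPM in the KO libraries, against 2279 to 3643 CPM in WT. Leukocyte markers (9 of 11 higher) summed to 1002 to 2839 CPM in the KO libraries, against 365 to 450.2 CPM in WT, and plasma cell markers (6 of 8 higher) to 289 to 2442 CPM in KO, against 78.4 to 129.8 CPM in WT. Endothelial markers summed to 340.4 to 1008 CPM in the KO libraries, against 75.8 to 105 CPM in WT (5 of 6 higher), skeletal muscle markers to 258 to 1966 CPM in KO, against 76.4 to 184 CPM in WT (4 of 5), and adipocyte markers to 42.5 to 844 CPM in KO, against 10.4 to 25.5 CPM in WT, with Lep at 0 in 1 or more libraries (1 of 5). Fabp4 made up most of the adipocyte sum, with 97.6, 38.7 and 810 CPM in KO replicates 1, 2 and 3. The median of the adipocyte list relative to the WT mean was -0.61, 1.58 and 4.96 in these libraries (log2 CPM), so it was not raised in KO replicate 1. Keratinocyte markers were at or below 5.13 CPM in sum, with Krt5, Krt14, Krt1 and Dsp each at 0 in at least 1 library (0 of 5 higher). Markers of cells other than the labelled line were thus present in every library. The part of the marker and mitochondrial differences in the results on the members was not tested. In bulk tissue, fewer cells of a type and less RNA per cell cannot be told apart.

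The highest levels per length in WT belonged to chaperones and to Atf4. In TPM (counts divided by merged exon length and scaled to the same sum in each library), Hsp90b1 (GRP94, the ER member of the HSP90 family) had 494 ± 218 TPM in KO and 944 ± 128 TPM in WT (SD, n = 3 each). Calr (calreticulin, a lectin chaperone) had 547 ± 207 TPM in KO and 635 ± 106 TPM in WT. Atf4 had 362 ± 204 TPM in KO and 621 ± 80.8 TPM in WT, and Hspa5 (BiP, the ER HSP70) had 317 ± 184 TPM in KO and 608 ± 135 TPM in WT. Hsp90b1 stood above the others in every WT library. Pdia3 (448 ± 124 TPM in KO and 514 ± 68.0 TPM in WT) stood below Calr, Atf4 and Hspa5 in every WT library. In KO the order differed, as Pdia3 stood above Hspa5 in every library and above Atf4 in KO replicates 1 and 3. The order of Calr, Atf4 and Hspa5 changed between WT libraries. The sensors were low: Ern1 had 33.7 ± 29.0 TPM in KO and 72.4 ± 41.2 TPM in WT, Eif2ak3 18.5 ± 6.05 TPM in KO and 23.7 ± 10.7 TPM in WT, and Atf6 20.7 ± 6.70 TPM in KO and 16.2 ± 7.32 TPM in WT. Lowest were Vldlr, a lipoprotein receptor induced through PERK and ATF4, at 4.11 ± 2.51 TPM in KO and 8.67 ± 3.43 TPM in WT, and Slc7a11 at 2.68 ± 1.41 TPM in KO and 3.05 ± 1.26 TPM in WT.

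**Figure D1:**
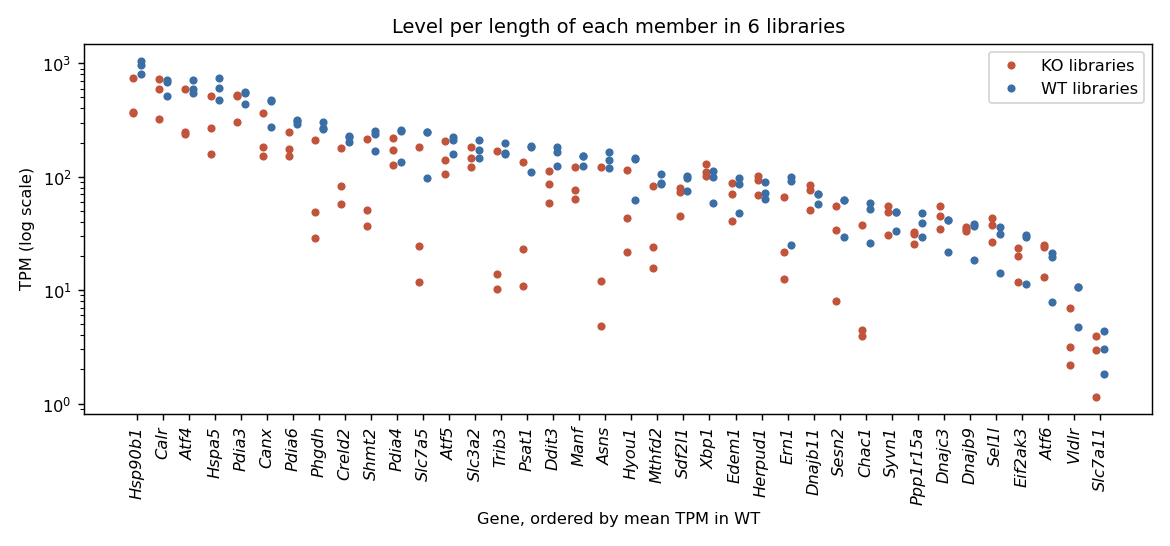
Level per length of the 38 members (TPM, log axis) in the 3 KO libraries (left of each gene) and the 3 WT libraries (right), ordered by the WT mean. Hsp90b1, Calr, Atf4 and Hspa5 are at the top, Vldlr and Slc7a11 at the bottom, and the KO libraries spread widest in Trib3, Asns, Psat1, Chac1 and Slc7a5.

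In the comparison of KO with WT tumours no member passed an adjusted p of 0.05 in either direction (edgeR quasi-likelihood test, Benjamini-Hochberg adjustment over 18621 genes), where 11.2% of all genes were called higher and 0.226% lower in KO. The smallest adjusted p was 0.115 (Creld2) in the chaperone arm and 0.117 (Phgdh) in the ATF4 arm. Unadjusted, 5 members were under 0.05, each lower in KO (Hspa5, Creld2, Ddit3, Phgdh and Mthfd2), as were 9.57% of all genes. With DESeq2, which called 17.5% of genes higher and 6.68% lower, 3 chaperone arm genes (Creld2, Hsp90b1 and Hspa5) and 1 ATF4 arm gene (Phgdh) were called lower; limma-voom called none. DESeq2 called 0 members of either arm when KO replicate 1, KO replicate 3 or any 1 WT library was left out. The median log2 fold change was -0.13 in the chaperone arm, -1.01 in the ATF4 arm and -0.05 over all genes tested. In the ATF4 arm 15 of 16 genes had a fold change below 0, and in the chaperone arm 14 of 22; over all genes tested 9622 of 18621 did.

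EdgeR called 0 members when any library other than KO replicate 2 was left out, and leaving out KO replicate 2 raised the counts of members called. That library, whose glioma markers were the nearest to WT among the KO libraries, was high where KO replicates 1 and 3 were low: the median over the ATF4 arm lay at -1.86, -0.27 and -2.03 in KO replicates 1, 2 and 3 relative to the WT mean on the log2 CPM scale, and at 0.18, -0.01 and -0.20 in WT replicates 1, 2 and 3. The chaperone arm medians were -0.05, -0.03 and -0.32 in KO and 0.07, 0.03 and -0.07 in WT. Without KO replicate 2, edgeR called 10 of 16 ATF4 arm genes lower and 0 higher, and 5 of 22 chaperone arm genes lower and 2 higher; the same fit called 18.5% of all genes lower and 22.7% higher. Limma-voom with sample quality weights called 11 ATF4 arm genes lower, 7 chaperone arm genes lower and 6 higher, where 25.5% of all genes were lower and 29.7% higher. KO replicates 1 and 3 were both below every WT library in 12 of 16 ATF4 arm genes, in 9 of 22 chaperone arm genes and in 32.6% of all genes tested. KO replicate 2 was singled out from these same values, as the KO library least like the other KO libraries. The adjusted p-values without it, here and below, are thus a description and no independent support for a difference. The same holds for the fit with quality weights, since those weights were estimated from these libraries.

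**Figure D2:**
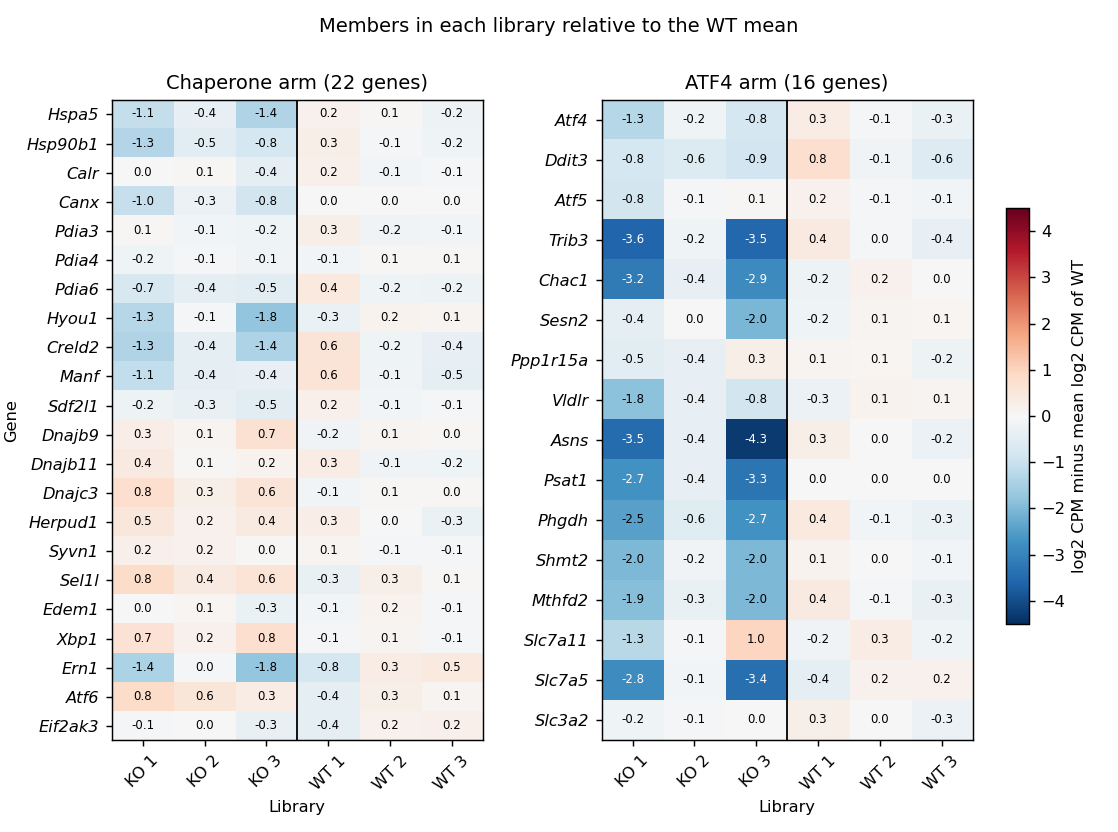
Each cell is a member's log2 CPM (prior count 2) minus its mean over the WT libraries, with KO replicates 1 to 3 on the left and WT replicates 1 to 3 on the right of each panel. In the ATF4 arm the synthesis enzymes, Trib3, Chac1 and Slc7a5 are low in KO replicates 1 and 3 and near the WT mean in KO replicate 2; in the chaperone arm low folding genes stand above genes that are slightly high.

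Of the 14 folding genes, 11 had a fold change below 0 and 6 had every KO library below every WT library, where 19.5% of all genes did. Overlap of groups, here and below, was judged in TMM-scaled CPM. In TPM the groups of Hspa5, Canx and Sdf2l1 overlapped, while those of Hsp90b1, Creld2 and Pdia6 stayed apart. Of the ATF4 arm genes apart in CPM, Ddit3 and Phgdh stayed apart in TPM, while Chac1, Vldlr, Asns, Psat1 and Shmt2 overlapped. Hspa5 (ENSMUSG00000026864.13, chromosome 2, 34771970 to 34777547, mm10) had 414, 682.5 and 340.1 CPM in KO replicates 1, 2 and 3, against 988, 917 and 739 CPM in WT replicates 1, 2 and 3. In CPM the KO libraries did not overlap the WT libraries, and KO replicate 2 was the nearest to them. The log2 fold change was -0.88 (SE 0.38, edgeR adjusted p = 0.157; without KO replicate 2 it was -1.24 and the adjusted p 0.0215). Creld2, a disulfide isomerase-like protein induced by ER stress, had 40.9, 76.5 and 39.2 CPM in KO, against 153, 89.7 and 80.1 CPM in WT. Its groups stood apart by a small margin, with WT replicate 1 well above the other libraries (log2 fold change -1.04, SE 0.38, edgeR adjusted p = 0.115; without KO replicate 2, -1.44 and 0.0150). Without WT replicate 1, Creld2 had a log2 fold change of -0.71 (edgeR adjusted p = 0.2585). Hsp90b1 had 528, 932 and 753 CPM in KO, against 1593, 1236 and 1137 CPM in WT. All KO libraries were lower, and the log2 fold change was -0.84 (SE 0.37, edgeR adjusted p = 0.164; without KO replicate 2, -1.06 and 0.0518). Of its exon bases, 10.3% lie under 1810014B01Rik on the opposite strand, and unstranded counts cannot tell the genes apart there.

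Canx (calnexin, the membrane-bound lectin chaperone) had 309.9 and 360.0 CPM in KO replicates 1 and 3 and more in KO replicate 2 (KO mean 401 ± 116 CPM, SD, n = 3). WT replicates 1, 2 and 3 had 639.9, 639.5 and 638 CPM, but 277, 468 and 470.5 TPM. In CPM all KO libraries were lower, with a log2 fold change of -0.67 (SE 0.33, edgeR adjusted p = 0.195; without KO replicate 2, -0.95 and 0.0339). Hyou1, an ER relative of HSP70 that exchanges nucleotide on BiP, had 112, 258 and 78.5 CPM in the KO libraries, against 223, 306 and 297 CPM in WT, so that KO replicate 2 overlapped the WT libraries (log2 fold change -0.88, SE 0.46; without KO replicate 2, -1.54, edgeR adjusted p = 0.00819). Pdia6 and Sdf2l1, a disulfide isomerase and a partner of ER DnaJ proteins, also had non-overlapping groups, at log2 ratios of -0.58 (SE 0.32) and -0.35 (SE 0.25). Manf, a secreted ER stress protein, had a log2 fold change of -0.66 (SE 0.37) with overlapping groups. Without WT replicate 1, Pdia6 was at -0.34 and Manf at -0.31.

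Among the other folding genes, Calr, Pdia3 and Pdia4, a lectin chaperone and 2 disulfide isomerases, were close to even between genotypes and stood at log2 ratios of -0.13 (SE 0.32), -0.10 (SE 0.31) and -0.14 (SE 0.25). Pdia4 had the smallest SD of these, at 156 ± 8.29 CPM in the KO libraries, against 171 ± 11.3 CPM in WT (SD, n = 3 each). The DnaJ cochaperones of BiP had fold changes above 0, not all of them far from it. Dnajc3 (p58IPK) had 101.5, 71.2 and 89.7 CPM in KO, against 54.9, 62.4 and 61.3 CPM in WT, with all KO libraries higher (log2 fold change 0.56, SE 0.25, edgeR adjusted p = 0.164; without KO replicate 2, 0.67 and 0.0407). Dnajb9 (ERdj4) and Dnajb11 (ERdj3) stood at log2 ratios of 0.39 (SE 0.26) and 0.20 (SE 0.26) with overlapping groups. Dnajb9 was at 0.18 without KO replicate 3, and Dnajb11 at 0.03 without KO replicate 1.

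The degradation genes were level or slightly higher in KO. Sel1l, the scaffold of the HRD1 ubiquitin ligase, had 133, 99.1 and 114 CPM in KO replicates 1, 2 and 3, against 59.3, 89.5 and 77.6 CPM in WT replicates 1, 2 and 3. All KO libraries were higher (log2 fold change 0.61, SE 0.27, edgeR adjusted p = 0.163). Herpud1, a membrane adaptor of that ligase, had 85.8, 67.9 and 80.4 CPM in KO, against 73.3, 60.5 and 48.9 CPM in WT, with KO replicate 2 inside the WT range (log2 fold change 0.36, SE 0.26; 0.23 without KO replicate 1 and 0.20 without WT replicate 3). Syvn1, the ligase HRD1 itself, had 85.4, 83.4 and 74.5 CPM in the KO libraries, against 80.2, 69.6 and 68.8 CPM in WT (log2 fold change 0.16, SE 0.23). Edem1, a lectin that directs misfolded glycoproteins to disposal, had a log2 fold change of -0.07 (SE 0.26).

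The sensors did not move together. Xbp1 (ENSMUSG00000020484.18, chromosome 11), the target of IRE1 and a factor that plasma cells need, had 153, 111 and 166 CPM in KO replicates 1, 2 and 3, against 93.4, 107 and 93.1 CPM in WT replicates 1, 2 and 3. The KO libraries were all higher, KO replicate 2 by little (log2 fold change 0.55, SE 0.27, edgeR adjusted p = 0.190; without KO replicate 2, 0.69 and 0.0434). Plasma cell markers summed to 2392, 289 and 2442 CPM in the same KO libraries; their part in the Xbp1 values was not tested. Ern1, which encodes IRE1 alpha, had 63.9, 169 and 51.4 CPM in KO, against 101, 218 and 237.5 CPM in WT. KO replicate 2 lay inside the WT range, which was itself wide (log2 fold change -0.97, SE 0.53; without KO replicate 2, -1.70, edgeR adjusted p = 0.0170).

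Atf6 had 83.3, 68.9 and 60.2 CPM in KO replicates 1, 2 and 3, against 35.4, 57.2 and 51.9 CPM in WT replicates 1, 2 and 3. All KO libraries were higher by a narrow margin (log2 fold change 0.56, SE 0.28, edgeR adjusted p = 0.202; 0.37 without KO replicate 1 and 0.36 without WT replicate 1). Eif2ak3, the gene of PERK, had 43.1, 44.2 and 35.7 CPM in the KO libraries, against 33.8, 51.2 and 53.2 CPM in WT, so that its groups overlapped (log2 fold change -0.17, SE 0.27). Of its exon bases, 8.05% are shared with Gm43292 on the opposite strand, and the share is 3.97% for Ddit3 with Mars. With Dnajc3, Sel1l, Xbp1 and Atf6, 4 chaperone arm genes had every KO library above every WT library in CPM, where 24.6% of all genes tested did. No ATF4 arm gene was among them. In TPM the groups of all 4 overlapped. KO replicate 3 had 34.75, 26.55, 101.7 and 13.0 TPM for these genes in the order given, against 41.7, 35.95, 113.2 and 21.3 TPM in WT replicate 2.

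**Figure D3:**
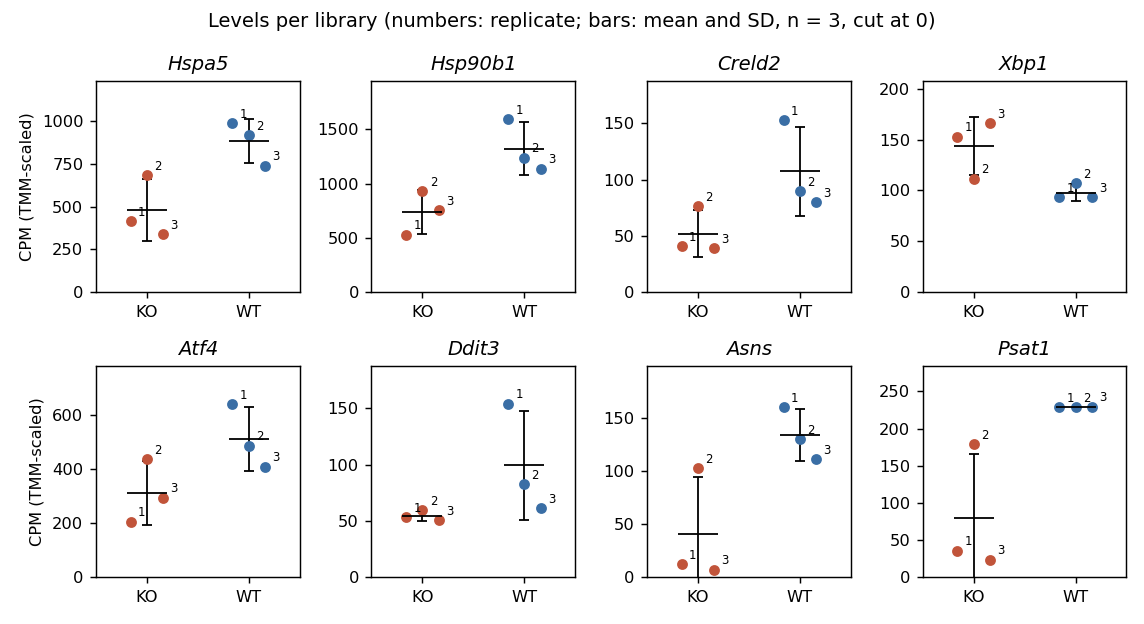
CPM of 8 members in the KO (left) and WT (right) libraries, with the mean and SD (n = 3 each) as bars, cut at 0. Hspa5, Hsp90b1, Creld2, Ddit3, Asns and Psat1 have every KO library below every WT library, Xbp1 has every KO library above, Atf4 overlaps, and Asns and Psat1 in KO replicate 2 lie far above the other KO libraries.

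Genes with and without the promoter element overlapped in their fold changes. The 8 chaperone arm genes with ERSE had log2 fold changes from -1.04 (Creld2) to 0.56 (Dnajc3), with a median of -0.62 and 6 below 0. The 11 genes with a promoter and no ERSE ran from -0.97 (Ern1) to 0.61 (Sel1l), with a median of -0.07 and 6 below 0. Thus Hspa5 and Dnajc3, which both carry the element shown above, lay on opposite sides. The set without ERSE includes Herpud1 (0.36) and Dnajb11 (0.20), which hold ERSE-II. Hyou1 (-0.88), Manf (-0.66) and Atf6 (0.56) had no matching promoter and are in neither set. The difference between the sets with and without ERSE was not tested.

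Among the ATF4 arm regulators, Atf4 (ENSMUSG00000042406.8, chromosome 15, 80255184 to 80257541, mm10) had 204, 437 and 294 CPM in KO replicates 1, 2 and 3, against 642, 487.5 and 409 CPM in WT replicates 1, 2 and 3. KO replicate 2 lay above WT replicate 3, so the groups overlapped (log2 fold change -0.72, SE 0.38, edgeR adjusted p = 0.223; without KO replicate 2, -1.06 and 0.0444). Ddit3 (CHOP, a pro-apoptotic target of ATF4) had 53.2, 59.3 and 50.6 CPM in KO, against 154, 82.6 and 60.97 CPM in WT. Here the KO libraries were alike and below every WT library, and WT varied by more, with WT replicate 1 highest (log2 fold change -0.87, SE 0.37, edgeR adjusted p = 0.150). Without WT replicate 1 it was -0.42 (edgeR adjusted p = 0.303), and without KO replicate 2 it was -0.95 (edgeR adjusted p = 0.104).

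Effectors that act downstream were uneven across KO. Chac1, which degrades glutathione, had 2.62, 18.9 and 3.24 CPM in KO, against 20.9, 28.2 and 24.3 CPM in WT. KO replicate 2 was just under the WT libraries and the others far under (log2 fold change -1.56, SE 0.73, edgeR adjusted p = 0.180; without KO replicate 2, -3.08 and 0.00111). Trib3, a pseudokinase that restrains ATF4 signalling, had 10.6, 112 and 11.02 CPM in KO, against 169.5, 124 and 98.1 CPM in WT, with KO replicate 2 inside the WT range (log2 fold change -1.55, SE 0.88; without KO replicate 2, -3.61, edgeR adjusted p = 0.000932). Vldlr had 7.93, 21.7 and 16.1 CPM in KO, against 23.4, 31.3 and 30.9 CPM in WT, all KO libraries being lower (log2 fold change -0.90, SE 0.39, edgeR adjusted p = 0.159; without KO replicate 2, -1.27 and 0.0306). Sesn2, an inhibitor of mTORC1, was lowest in KO replicate 3, with KO replicate 1 also below WT, at 42.8, 59.2 and 13.9 CPM in the KO libraries, against 50.2, 62.5 and 62.1 CPM in WT (log2 fold change -0.59, SE 0.48; -1.05 without KO replicate 2 and -0.22 without KO replicate 3). Atf5, a factor translated in the manner of ATF4, and Ppp1r15a (GADD34, which recruits a phosphatase to eIF2) had overlapping groups, at log2 ratios of -0.25 (SE 0.31) and -0.17 (SE 0.29).

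The enzymes of serine, asparagine and mitochondrial folate metabolism showed the widest gap within the KO libraries, and 5 of 5 had a fold change below 0 (median log2 -1.53). Phgdh (ENSMUSG00000053398.11, chromosome 3, 98313170 to 98339990, mm10), the first enzyme of serine synthesis, had 43.4, 162 and 35.8 CPM in KO replicates 1, 2 and 3, against 325, 220.1 and 193 CPM in WT replicates 1, 2 and 3. The groups did not overlap (log2 fold change -1.61, SE 0.60, edgeR adjusted p = 0.117; without KO replicate 2, -2.65 and 0.00191). Psat1, the next enzyme of that pathway, had 35.0, 179 and 23.3 CPM in KO, against 229.1, 228.6 and 229.3 CPM in WT. The WT values were less even in TPM, at 109.5, 184.6 and 186.5. KO replicate 2 was nearer to WT than to the other KO libraries (log2 fold change -1.53, SE 0.71, edgeR adjusted p = 0.178; without KO replicate 2, -2.99 and 0.00105).

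Mthfd2, a mitochondrial folate enzyme, had 30.0, 89.6 and 27.4 CPM in KO, against 149, 106 and 89.4 CPM in WT. KO replicate 2 was level with WT replicate 3, and the other KO libraries were far below (log2 fold change -1.23, SE 0.49, edgeR adjusted p = 0.137; without KO replicate 2, -2.02 and 0.00298). Asns (asparagine synthetase) had 11.8, 103 and 6.68 CPM in the KO libraries, against 161, 130.4 and 111 CPM in WT, the greatest fold change of the members at -1.73 on the log2 scale (SE 0.92, edgeR adjusted p = 0.221; without KO replicate 2, -3.87 and 0.000967). Shmt2, which makes mitochondrial one-carbon units from serine, had a log2 fold change of -1.11 (SE 0.53, edgeR adjusted p = 0.185; without KO replicate 2, -2.04 and 0.00171), and its KO libraries were all below WT. Summed over the 5 enzymes, the level was 177, 741 and 150.2 CPM in KO replicates 1, 2 and 3, against 1120.3, 913 and 835 CPM in WT replicates 1, 2 and 3. The glioma markers were likewise lowest in KO replicate 3 and highest of the KO libraries in replicate 2, and their part in this difference was not tested.

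The transporters went separate ways. Slc7a5 (LAT1, a carrier of large neutral amino acids) had 32.6, 212 and 22.1 CPM in KO, against 178, 267 and 267 CPM in WT, with KO replicate 2 inside the WT range (log2 fold change -1.41, SE 0.80, edgeR adjusted p = 0.245; without KO replicate 2, -3.13 and 0.00131). Its heavy-chain partner Slc3a2 (CD98) did not share this pattern, at 187, 201 and 216 CPM in the KO libraries, against 254, 216 and 176 CPM in WT (log2 fold change -0.10, SE 0.28). Slc7a11, the cystine carrier that pairs with the same heavy chain, had 5.75, 12.9 and 27.3 CPM in the KO libraries, against 12.4, 17.5 and 12.2 CPM in WT. Its lowest and highest values were both in KO libraries (log2 fold change 0.13, SE 0.54), and its sign reversed without composition scaling, with limma-voom, with quality weights and without KO replicate 3.

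**Figure D4:**
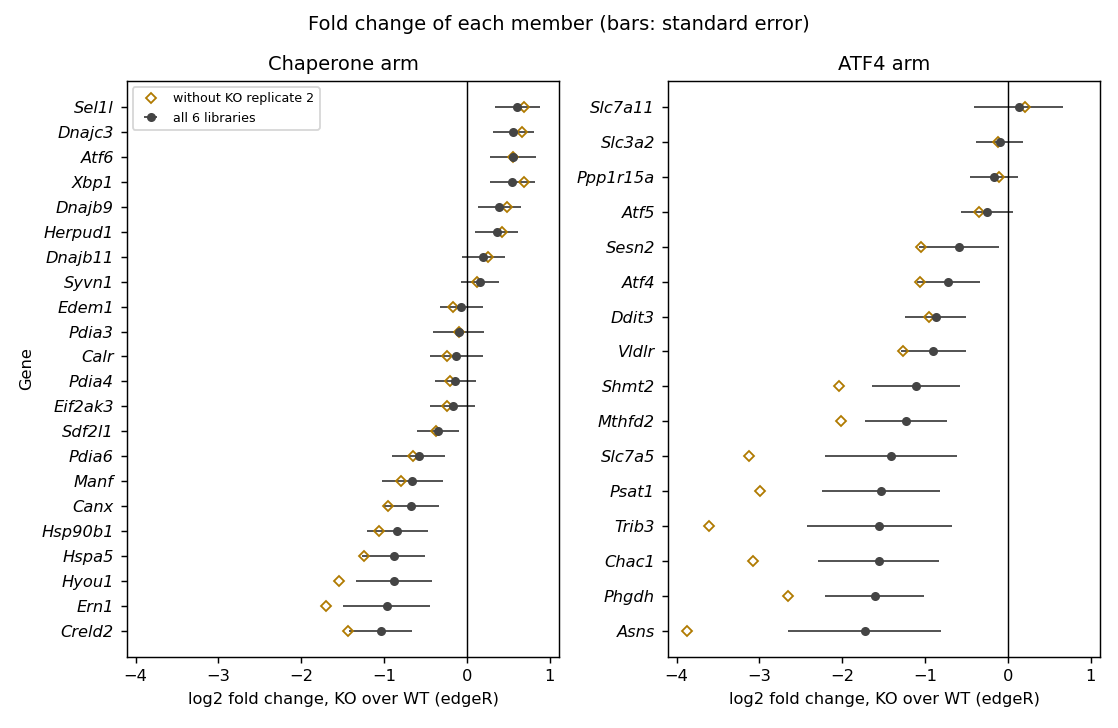
Log2 fold change of KO over WT for each member from all 6 libraries (filled points, bars are the standard error) and without KO replicate 2 (open diamonds), sorted within each arm. The ATF4 arm runs from 0.13 (Slc7a11) to -1.73 (Asns) and lies further below 0 without KO replicate 2 except for Slc7a11 and Ppp1r15a, while the chaperone arm runs from 0.61 (Sel1l) to -1.04 (Creld2) and shifts less.

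The arms also had unlike spreads among the KO libraries. The median SD of log2 CPM over the ATF4 arm was 1.09 in KO and 0.266 in WT, against 0.248 in KO and 0.248 in WT over the chaperone arm, and 0.574 in KO and 0.343 in WT over all genes tested. The SD was wider in KO than in WT for 14 of 16 ATF4 arm genes and 11 of 22 chaperone arm genes, against 70.2% of all genes. These values describe the same 6 libraries as the fold changes and were not tested.

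**Figure D5:**
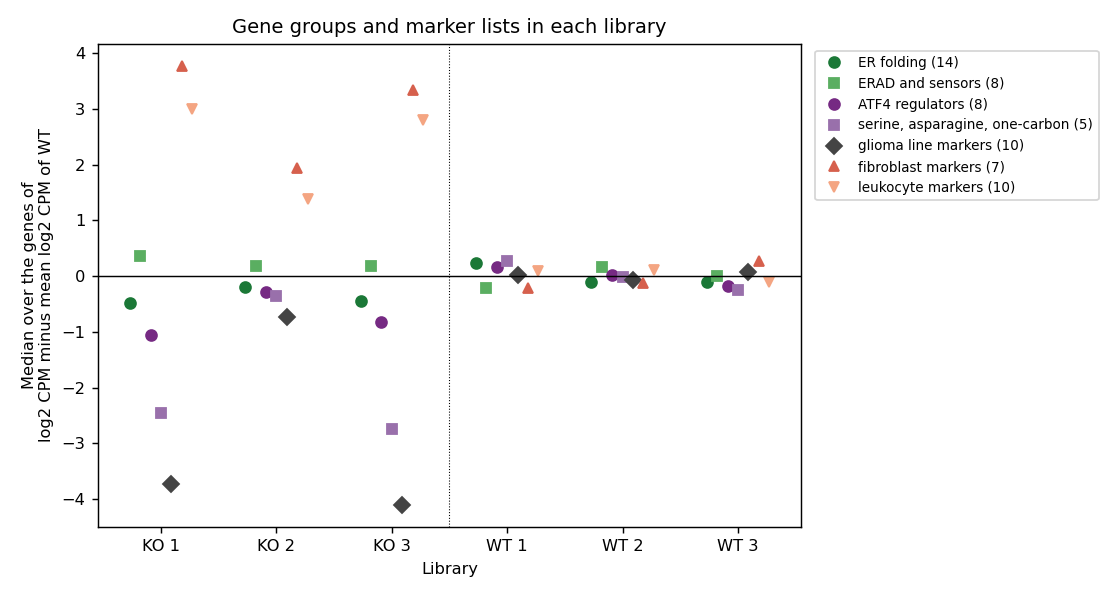
Median over the genes of each group of log2 CPM minus the WT mean, for each library (KO on the left, WT on the right), for 4 groups of members and 3 lists of cell type markers. The synthesis enzymes lie at -2.46, -0.36 and -2.74 and the glioma markers at -3.73, -0.74 and -4.10 in KO replicates 1, 2 and 3, while fibroblast and leukocyte markers are high in the same libraries and the ER groups stay within 0.48 of 0.

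Neighbouring genes of the same pathways were examined as lists. Of 37 other ER folding and degradation genes, 2 passed over all genes tested, both higher in KO, where 11.2% of all genes were called higher. The median log2 fold change of the list was -0.19. DESeq2 called 4 higher and 1 lower, where it called 17.5% of all genes higher and 6.68% lower. Without KO replicate 2, edgeR called 5 higher and 7 lower, where that fit called 22.7% of all genes higher and 18.5% lower. Creb3l1, an ER-anchored factor that promotes collagen secretion, had a log2 fold change of 2.53 (SE 0.41, edgeR adjusted p = 0.0246), and Wfs1, an ER membrane protein, 2.37 (SE 0.56, adjusted p = 0.0367). With limma-voom the Wfs1 call was lost (adjusted p = 0.0740), and edgeR called no gene of the whole table when KO replicate 1 or any 1 WT library was left out. Ero1lb, an ER oxidase, did not pass (1.83, SE 0.51, edgeR adjusted p = 0.0571), nor did Mbtps2 (-0.96, SE 0.36), which cuts ATF6, Hspa13 (-0.73, SE 0.28) or Fkbp11 (-0.97, SE 0.39). Creb3l1 had 63.4, 25.1 and 62.6 CPM in KO, against 7.95, 7.86 and 10.2 CPM in WT, and fibroblast markers were high in the same KO libraries; their part was not tested.

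Of 30 tested genes among 31 others of the ATF4 axis, 1 passed, where 11.2% of all genes were called higher and 0.226% lower. In this list 22 had a fold change below 0 (median log2 -0.63). DESeq2 called 1 higher and 4 lower, where it called 17.5% of all genes higher and 6.68% lower. Limma-voom called 1 higher and 0 lower. Without KO replicate 2, edgeR called 3 higher and 14 lower, where that fit called 22.7% of all genes higher and 18.5% lower. The gene that passed with edgeR was Stc2, a secreted glycoprotein, which was higher in KO (2.67, SE 0.45, edgeR adjusted p = 0.0246). Cbs, of the transsulfuration pathway, had a log2 fold change of -2.32 (SE 0.64, edgeR adjusted p = 0.0555), Ddit4, an inhibitor of mTORC1, -1.37 (SE 0.41) and Psph, the last enzyme of serine synthesis, -1.44 (SE 0.47). DESeq2 gave Cbs, Ddit4 and Psph adjusted p-values of 0.00156, 0.0073 and 0.0168, and limma-voom 0.0622, 0.0607 and 0.0707. Levels of Cbs were low in KO, at 0.374, 1.57 and 1.25 CPM in replicates 1, 2 and 3. Atf3 and Cebpb, which inflammatory signals also induce, were at 1.52 (SE 0.55) and 1.23 (SE 0.52) without passing. Cytosolic aminoacyl-tRNA synthetases, many of them ATF4 targets, all had fold changes below 0 (20 of 20, median log2 -0.92), and 0 passed; 9 had an unadjusted p under 0.05, among them Dars (-0.78, SE 0.27), Lars (-1.33, SE 0.49) and Yars (-1.12, SE 0.43). Of all genes, 9.57% were lower with an unadjusted edgeR p under 0.05. DESeq2 called 4 of the 20 synthetases lower, where it called 6.68% of all genes lower, and limma-voom called 0. Without KO replicate 2, edgeR called 16 of them lower, where that fit called 18.5% of all genes lower.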

How the data were processed

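The deposited file holds raw read counts per gene symbol in the layout of featureCounts, per the file header, for 3 KO and 3 WT libraries; the build mm10 and the tool DESeq2 are named per the submitters' processing notes, and the aligner is not given in the sources used here. Totals were 24369359 to 40574093 counts per library, and columns outside these libraries numbered 0. Of 55291 symbols, 52905 lay at the same position in GENCODE M21.

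Counts were fitted with edgeR 4.0.16 in R 4.3.3 (TMM scaling, filterByExpr, quasi-likelihood F test, two-sided, genotype as the only term), and p-values were Benjamini-Hochberg adjusted over 18621 genes, which held 99.9% of counts, at a threshold of 0.05. Standard errors (SE) were taken as the size of the log2 fold change over the root of F. CPM used TMM-scaled library sizes, TPM used merged exon lengths, and log2 CPM used a prior count of 2. Alternatives were other scalings and filters, DESeq2 1.42.0, limma 3.58.1 (voom, with and without sample quality weights), a robust fit and leaving out each library. On simulated counts for this comparison, over 18621 genes, the fit recovered 33% of 100 genes changed 4-fold and 94% of 100 genes changed 16-fold, with 6 false calls. Only those genes were changed, genes were drawn independently, and both groups had the same dispersion. The measured libraries differ in these respects, so the shares may not hold for them.

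The members and lists were chosen with earlier results of these data known. Values in every library are given for Hspa5, Atf4, Ddit3, the sensors and the 3 members with the smallest p per role; Hsp90b1, Canx, Hyou1, Trib3, Sesn2 and Asns were added after their values were seen. Neighbouring lists name up to 3 genes with the smallest p in each direction. Promoters came from RefSeq (GRCm38.p6), searched on both strands with Python 3.11.15.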

Additional observations from a re-analysis of the deposited data

How the results depend on the processing

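The arm medians kept their sign under all 14 alternatives, from -0.26 to -0.08 in the chaperone arm and from -1.64 to -0.88 in the ATF4 arm. Without composition scaling the median of all genes was -0.18, against -0.05 with TMM scaling. Of all member values under the alternatives, 478 kept sign and side of the threshold, 46 passed it only under the alternative, and 8 reversed: Slc7a11 was at -0.09 without composition scaling, -0.18 with limma-voom, -0.91 with quality weights and -0.61 without KO replicate 3; Pdia3 was at 0.13 with quality weights and 0.04 without WT replicate 1; Edem1 was at 0.02 without KO replicate 3, and Slc3a2 at 0.02 without WT replicate 1. Over the fits without 1 library, these ran from -0.61 to 0.46 (Slc7a11), -0.23 to 0.04 (Pdia3), -0.17 to 0.02 (Edem1) and -0.25 to 0.02 (Slc3a2). Genes called over the whole table numbered 2125, against 3356 without a low-count filter, 4510 with DESeq2, 1019 with limma-voom and 10280 with quality weights. Chaperone arm calls numbered 3 with DESeq2 and 13 with quality weights, and ATF4 arm calls 1 without a low-count filter (Phgdh), 1 with DESeq2 and 11 with quality weights. With 1 library left out, edgeR called 0 to 8078 genes, 0 to 7 chaperone arm genes and 0 to 10 ATF4 arm genes. It called 8078 without KO replicate 2, 949 without KO replicate 3, and 0 without KO replicate 1 or any WT replicate, where 3461 to 4931 genes had an unadjusted p under 0.05, DESeq2 called 2084 to 3099 genes and limma-voom called 0. The cause was not tested. No paired analysis was possible because the labels carry no replicate numbers, and those used here only name the libraries. The lowest count of a member in a library was 65.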

Other observations

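Heat shock genes outside the ER were looked at as a list of 15 genes: 12 chaperones and cochaperones of the cytosol and nucleus, the mitochondrial chaperonins Hspd1 and Hspe1, and Hsf1, the factor that is known to induce many of them. One of them, Hspb1 (HSP27), passed over all genes tested and was higher in KO (log2 fold change 2.33, SE 0.52, edgeR adjusted p = 0.0311), at 20.3, 9.57 and 33.2 CPM in KO replicates 1, 2 and 3, against 5.79, 3.11 and 3.57 CPM in WT replicates 1, 2 and 3. The same edgeR fit called 11.2% of all genes higher. With limma-voom the Hspb1 call was lost (adjusted p = 0.0566). None passed in the lower direction with edgeR, while DESeq2 called 4 lower and edgeR without KO replicate 2 called 9 lower and 1 higher, where DESeq2 called 6.68% of all genes lower and that edgeR fit 18.5%. Of the 15, 11 had a fold change below 0, with a median log2 of -0.74. Hsp90aa1, the inducible cytosolic HSP90, had 146, 460.3 and 144 CPM in KO, against 639.7, 669 and 718 CPM in WT (log2 fold change -1.43, SE 0.51, edgeR adjusted p = 0.106). KO replicates 1 and 3 were far below WT and KO replicate 2 between, the order also seen in the ATF4 arm. Hspa4l and Dnajb1, an HSP110 relative and an HSP70 cochaperone, stood at log2 ratios of -1.69 (SE 0.48) and -0.75 (SE 0.26), while the stress-inducible HSP70 genes Hspa1a and Hspa1b, which are near-identical copies whose reads may be split between them, had 0.64 (SE 0.57) and 0.99 (SE 0.40). Glioma line markers were low in the same KO libraries, and their part in these values was not tested.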
